A study of Mus musculus with 16 samples.

Results

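The alpha and beta tubulin isotypes examined here were 10 genes, the alpha isotypes *Tuba1a*, *Tuba1b*, *Tuba1c* and *Tuba4a* and the beta isotypes *Tubb2a*, *Tubb2b*, *Tubb3*, *Tubb4a*, *Tubb4b* and *Tubb5*, taken by name from a table of 49585 mouse genes. Their choice was made with earlier results of these data known, and all 10 passed the filter on low values in every comparison. RNA had been sequenced from inner hair cells (IHCs) and outer hair cells (OHCs) picked by morphology from the cochleae of CBA/J mice (CBA in the labels), with about 1000 cells of 1 kind in a sample, pooled from several animals of both sexes. The 4 labelled groups were IHCs at 9 months (9m IHC), IHCs at 26 months (26m IHC), OHCs at 9 months (9m OHC) and OHCs at 26 months (26m OHC), with 4 libraries each. No treatment is given in the labels, and the study asked which transcripts differ between adult and aged HCs of each kind. Levels are in RPKM, a read number divided by gene length and library depth.

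Microtubules are hollow polymers of alpha and beta tubulin dimers. Mammals encode each subunit in several genes, the isotypes, whose proteins are nearly alike except at their acidic C-terminal tails, which project from the microtubule surface and carry most of the enzymatic modifications, such as removal of the final tyrosine, glutamylation and glycylation. In the organ of Corti, microtubules fill the pillar and Deiters' supporting cells in dense bundles, and in HCs they run through the soma, surround the cuticular plate and serve as tracks for transport to the synapse. *Tubb3* is best known as a marker of neurons, *Tuba1a*, *Tubb2a*, *Tubb2b* and *Tubb4a* are abundant in nervous tissue, and *Tuba1b*, *Tuba1c*, *Tubb4b* and *Tubb5* are expressed widely.

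The isotypes shown differ most at the end of the coding sequence, which is given for 8 members because it encodes the C-terminal tail. Each line gives the last 60 bases of the coding sequence from 5′ to 3′ on the strand of the gene (GRCm38, GENCODE annotation), all within an exon, with the last codon before the stop codon in capitals.
*Tuba1c*, chr15:99037950-99038009, plus strand: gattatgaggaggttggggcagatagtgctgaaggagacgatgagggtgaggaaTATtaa
*Tuba4a*, chr1:75215622-75215681, minus strand: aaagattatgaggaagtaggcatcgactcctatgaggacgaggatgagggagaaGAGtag
*Tubb2a*, chr13:34074468-34074527, minus strand: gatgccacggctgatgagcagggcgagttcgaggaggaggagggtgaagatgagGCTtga
*Tubb2b*, chr13:34127471-34127530, minus strand: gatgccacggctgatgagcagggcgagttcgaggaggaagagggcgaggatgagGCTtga
*Tubb3*, chr8:123421623-123421682, plus strand: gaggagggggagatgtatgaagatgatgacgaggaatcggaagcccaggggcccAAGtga
*Tubb4a*, chr17:57080690-57080749, minus strand: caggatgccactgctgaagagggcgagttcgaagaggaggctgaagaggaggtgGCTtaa
*Tubb4b*, chr2:25222308-25222367, minus strand: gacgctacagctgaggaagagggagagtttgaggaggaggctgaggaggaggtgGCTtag
*Tubb5*, chr17:35834982-35835041, minus strand: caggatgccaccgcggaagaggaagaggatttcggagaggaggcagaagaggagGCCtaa

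The last codon encoded tyrosine in *Tuba1c*, the residue that is removed and replaced in the tyrosination cycle, whereas *Tuba4a* ended in a glutamate codon and so encodes an alpha tubulin without that tyrosine. The beta isotypes ended in an alanine codon, except *Tubb3*, which ended in a lysine codon. *Tuba1c* and *Tuba4a* were identical at 85.2% of coding positions and at 58.3% of the last bases before the stop codon. *Tubb2a* and *Tubb2b* shared 96.5% of coding positions and 94.7% of the last bases. *Tubb3* shared 81.3% to 83.4% of coding positions with the other beta members, and 38.6% to 48.3% of the last bases.

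Before the results, the labels and the libraries were checked. Mapped reads per library, recovered from the steps between RPKM values, ranged from 28826644 to 31243721 for libraries labelled 9m IHC, from 23161311 to 25617032 for 26m IHC, from 19666190 to 21030345 for 9m OHC and from 19990435 to 21226800 for 26m OHC. Within each group, the reads of library 1 matched those of library 2, and those of library 3 matched library 4, within sampling noise (the mean chi-square over genes was 0.995 to 1.10 for these 8 pairs and 2.72 to 3.47 for the other 16 pairs). The matching libraries were averaged into 1 sample, so that n = 2 per group, and p-values measure only the spread between these averages. The study's methods describe biological replicates with technical repeats, but no label ties a library to either, so this spread may be technical. Markers of HCs in general were present throughout, with a sum over 8 genes of 5190 to 5225 RPKM (9m IHC), 3984 to 4050 RPKM (26m IHC), 2486 to 2542 RPKM (9m OHC) and 2457 to 2501 RPKM (26m OHC). That sum was mostly *Calb2* except with the label 26m IHC (3150, 252, 1609 and 2014 RPKM in that order). *Lhfpl5*, by contrast, was at 484, 1428, 334 and 139 RPKM. With 26m OHC against 26m IHC, 2 of the 8 markers were called higher and 6 lower, against 29% and 34.4% of all genes tested. The summed markers that tell OHCs from IHCs went against the labels 26m IHC and 9m OHC. Single markers were mixed between the labels 9m OHC and 9m IHC. The summed level of 8 OHC markers, among them the motor protein gene *Slc26a5*, was 77.3 to 81.0 RPKM in libraries labelled 9m IHC, 15180 to 15400 in 26m IHC, 121 to 127 in 9m OHC and 1221 to 1234 in 26m OHC, and that of 5 IHC markers was 771 to 784, 30.9 to 31.5, 660 to 668 and 168 to 172 RPKM in the same order. The OHC marker sum was mostly *Ocm* except with the label 9m IHC (32.9, 12920, 97.0 and 1151 RPKM). *Slc26a5* alone was at 1.07, 816, 0.172 and 1.85 RPKM, so it was low with the label 26m OHC too. With 9m OHC against 9m IHC, 2 of the 8 OHC markers were called higher and 2 lower. Of the 5 IHC markers, 1 was called higher there and 2 lower, against 17.3% and 48.5% of all genes tested. The IHC marker sum with 9m OHC was mostly *Dnajc5b* (407 RPKM). *Slc17a8* was at 90.5 RPKM with 9m OHC against 44.4 with 9m IHC, and *Tbx2* at 5.51 against 106. With 26m OHC against 9m OHC, 6 of the 8 OHC markers were called higher and 0 lower, against 35.6% and 14% of all genes tested. Groups are therefore named below as libraries with a given label. The labels 26m IHC and 9m OHC differ in age as well as in cell type, and each age comparison uses 1 of them. No direction below is therefore evidence about the cell type or the age named in the label. In such bulk samples, fewer cells of a type and less RNA per cell cannot be told apart.

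Among the alpha isotypes, *Tuba1a* (ENSMUSG00000072235, chromosome 15 from 98949841 to 98953551), the isotype of developing neurons, was the most abundant in libraries labelled IHC. Its level was 511, 508, 482 and 481 RPKM in the libraries labelled 9m IHC and 740, 738, 721 and 710 RPKM in those labelled 26m IHC. It was 199, 203, 199 and 199 RPKM in the libraries labelled 9m OHC and 347, 338, 327 and 328 RPKM in those labelled 26m OHC. No library of any group overlapped another group, the level was highest with the label 26m IHC and lowest with 9m OHC, and both age comparisons had the older libraries higher. *Tuba1b* (ENSMUSG00000023004, chromosome 15 from 98931425 to 98934565), the widely expressed isotype next to it on the chromosome, had another order. It was 299, 298, 282 and 287 RPKM in the libraries labelled 9m IHC and 192, 193, 181 and 189 RPKM in 26m IHC. It was 229, 237, 227 and 228 RPKM in 9m OHC and 425, 425, 406 and 406 RPKM in 26m OHC. Its level was thus highest with the label 26m OHC and lowest with 26m IHC, again with no overlap between groups.

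*Tuba1c* (ENSMUSG00000043091, chromosome 15 from 99029891 to 99038105), a widely expressed isotype on the opposite strand of the same cluster, was far less abundant and varied far more. It was 4.10, 4.26, 3.63 and 4.23 RPKM in the libraries labelled 9m IHC and 1.12, 0.849, 1.03 and 1.68 RPKM in 26m IHC. It was 17.6, 14.9, 14.5 and 14.6 RPKM in 9m OHC and 41.1, 42.4, 37.7 and 41.2 RPKM in 26m OHC. The 4 groups did not overlap, and the highest group mean was 34.8-fold the lowest. In the libraries labelled 26m IHC these values rested on 43 to 77 reads per library. *Tuba4a* (ENSMUSG00000026202, chromosome 1 from 75214228 to 75219865), the isotype without an encoded tyrosine, varied least of the alpha members, from 21.8 RPKM in a library labelled 9m OHC to 42.1 RPKM in one labelled 9m IHC. Its group means were 40.6 ± 1.73 (9m IHC), 25.1 ± 1.02 (26m IHC), 22.4 ± 0.678 (9m OHC) and 31.8 ± 0.813 RPKM (26m OHC; SD, n = 2 each), with no overlap between groups.

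**Figure D1:**
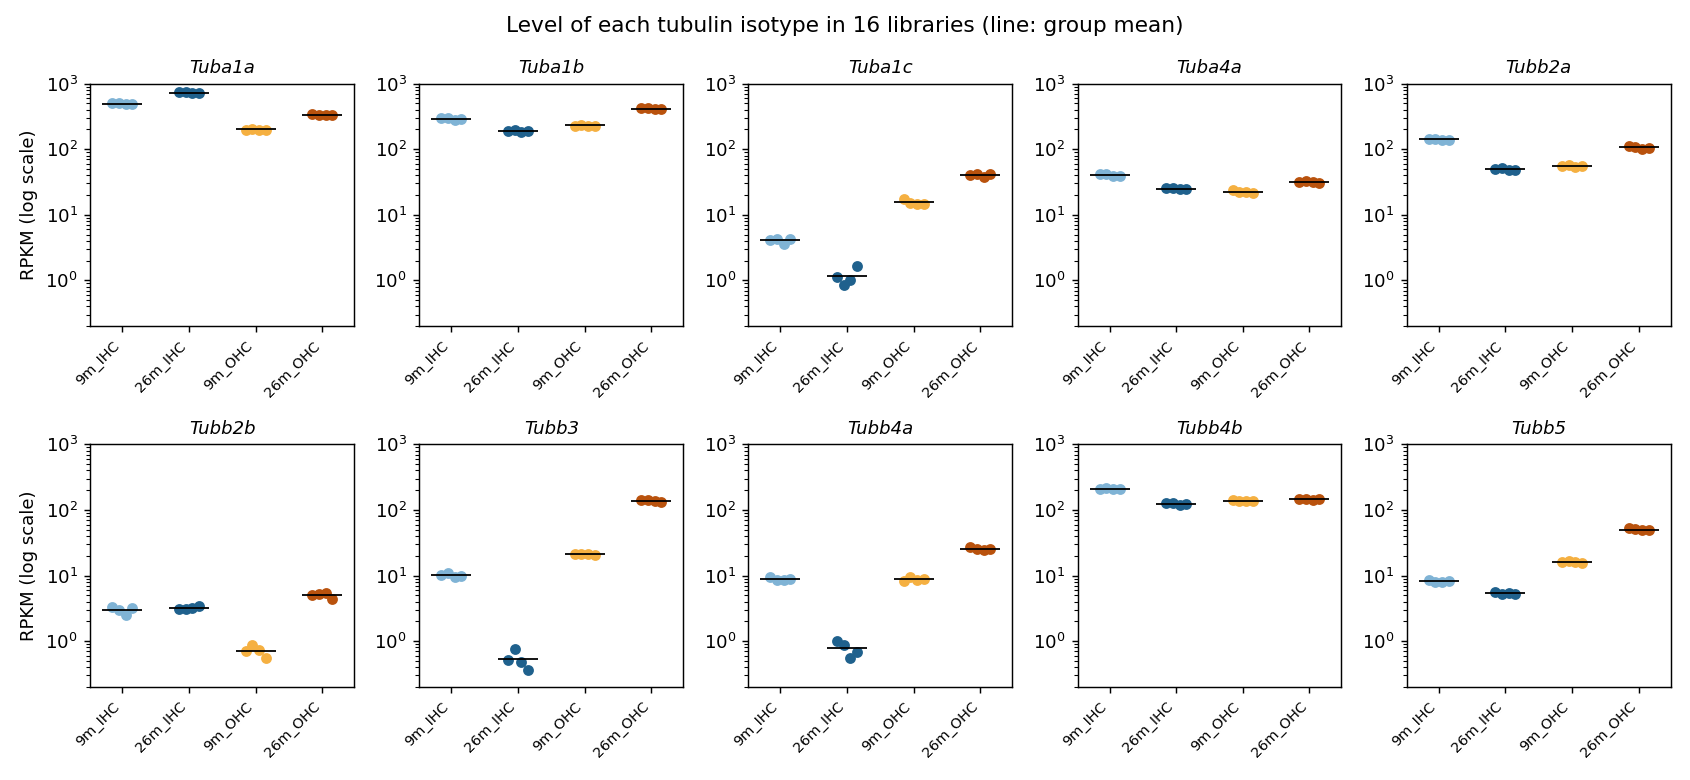
Level of the 10 tubulin isotypes in RPKM (vertical axis, log scale) in the 4 labelled groups (horizontal axis), with 1 point per library and a line at the group mean. *Tubb3* spans the widest range, from a mean of 0.528 RPKM with the label 26m IHC to 139 RPKM with 26m OHC, whereas *Tubb4b* stays between 124 and 211 RPKM.

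Among the beta isotypes, *Tubb3* (ENSMUSG00000062380, chromosome 8 from 123411424 to 123422015), the neuronal isotype, had the widest range. Its level was 10.3, 10.9, 9.41 and 9.77 RPKM in the libraries labelled 9m IHC and 0.507, 0.752, 0.485 and 0.368 RPKM in 26m IHC. It was 21.3, 21.5, 21.5 and 20.6 RPKM in 9m OHC and 143, 142, 138 and 132 RPKM in 26m OHC. The 4 groups were far apart, with means of 10.1 ± 0.701, 0.528 ± 0.143, 21.2 ± 0.251 and 139 ± 5.11 RPKM, and the highest mean was 263-fold the lowest. The low end rested on 16 to 36 reads per library, and the high end on 4952 to 5619. No 75-base window of its longest transcript occurred in a transcript of another gene, although a gene model on the same strand overlaps it.

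*Tubb4a* (ENSMUSG00000062591, chromosome 17 from 57080066 to 57087782), an isotype of brain and of myelinating cells, was 9.34, 8.65, 8.52 and 8.81 RPKM in the libraries labelled 9m IHC and 0.991, 0.859, 0.562 and 0.676 RPKM in 26m IHC. It was 8.25, 9.63, 8.70 and 8.73 RPKM in 9m OHC and 27.3, 25.4, 24.7 and 25.5 RPKM in 26m OHC. Libraries of both cell types overlapped at 9 months and had nearly equal means of 8.83 ± 0.232 and 8.83 ± 0.158 RPKM, while the older groups lay below and above them. *Tubb5* (ENSMUSG00000001525, chromosome 17 from 35833921 to 35838306), the widely expressed isotype of dividing and resting cells, was 8.60, 8.08, 7.95 and 8.38 RPKM in the libraries labelled 9m IHC and 5.58, 5.25, 5.43 and 5.29 RPKM in 26m IHC. It was 16, 16.9, 16 and 15.6 RPKM in 9m OHC and 52.8, 50.4, 48.7 and 49.2 RPKM in 26m OHC. *Tubb5* had the same order of groups as *Tubb3* and *Tuba1c*, with no overlap, over a 9.34-fold range.

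*Tubb2a* (ENSMUSG00000058672, chromosome 13 from 34074301 to 34078008), a neuronal isotype, was 145, 145, 137 and 139 RPKM in the libraries labelled 9m IHC and 49.6, 51.3, 48.7 and 48.2 RPKM in 26m IHC. It was 56.0, 57.4, 54.2 and 55.7 RPKM in 9m OHC and 111, 109, 102 and 104 RPKM in 26m OHC. The groups did not overlap, although those labelled 26m IHC and 9m OHC lay close together. Its near-identical neighbour *Tubb2b* (ENSMUSG00000045136, chromosome 13 from 34127008 to 34130354), an isotype of developing neurons and glia, was much less abundant, at 3.27, 2.98, 2.49 and 3.22 RPKM in the libraries labelled 9m IHC and 3.08, 3.07, 3.19 and 3.40 RPKM in 26m IHC. It was 0.697, 0.866, 0.741 and 0.548 RPKM in 9m OHC, on 21 to 35 reads per library, and 5.13, 5.15, 5.41 and 4.34 RPKM in 26m OHC. The libraries labelled 9m IHC and 26m IHC overlapped, and those labelled 9m OHC were the lowest. *Tubb4b* (ENSMUSG00000036752, chromosome 2 from 25222160 to 25224702), a widely expressed isotype found also in cilia, was the most even member. Its means were 211 ± 3.68 (9m IHC), 124 ± 2.81 (26m IHC), 138 ± 3.05 (9m OHC) and 145 ± 3.36 RPKM (26m OHC), a 1.70-fold range, and the libraries of the last pair of groups overlapped.

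From the age label of 9 months to that of 26 months, *Tubb3*, *Tubb4a* and *Tuba1c* were called lower in libraries labelled IHC and higher in those labelled OHC. Among libraries labelled IHC, 4 of the 10 isotypes were lower at 26 months than at 9 months and none was higher, with calls made where the adjusted p was at most 0.1 and the log2 difference of RPKM + 0.1 at least 1. Of all 15711 genes tested, 18.6% were called lower and 14.1% higher. *Tubb3* was lower by 19.1-fold (log2 difference -4.04, SE 0.161, adjusted p = 9.49e-06) and *Tubb4a* by 11.4-fold (-3.38, SE 0.167, adjusted p = 2.1e-05). *Tuba1c* was lower by 3.47-fold (-1.73, adjusted p = 0.000155) and *Tubb2a* by 2.86-fold (-1.51, adjusted p = 1.75e-06). The differences of *Tuba1b*, *Tuba4a*, *Tubb4b* and *Tubb5* were -0.63, -0.69, -0.76 and -0.61 with adjusted p of 5.31e-05 or less, short of the fold limit. *Tuba1a* had a difference of 0.55 (adjusted p = 6.79e-05), also short of that limit, and *Tubb2b* one of 0.09 (adjusted p = 0.261). The median difference was -0.73 over the 10 isotypes and -0.09 over all genes tested.

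Among libraries labelled OHC, 5 of the 10 isotypes were higher at 26 months and none was lower, where 35.6% of all 14843 genes tested were called higher and 14% lower. *Tubb3* was 6.55-fold higher (log2 difference 2.70, SE 0.0331, adjusted p = 2.05e-06) and *Tubb2b* 7.02-fold (2.66, SE 0.0977, adjusted p = 1.72e-05). *Tubb5* was 3.12-fold higher (1.64, adjusted p = 5.5e-06), *Tubb4a* 2.92-fold (1.53, adjusted p = 5.41e-06) and *Tuba1c* 2.63-fold (1.39, adjusted p = 3.22e-05). Short of the fold limit were *Tubb2a* (0.93), *Tuba1b* (0.85), *Tuba1a* (0.74) and *Tuba4a* (0.50), each with an adjusted p of 0.000147 or less, and *Tubb4b* (0.07, adjusted p = 0.0608). *Tubb2a* passed it when libraries were rescaled without mitochondrially encoded genes (1.08) and *Tuba1b* under quantile normalization (1.01). The median difference was 1.16 over the isotypes and 0.45 over all genes tested. The balance of all calls depended on the scaling, with 71.8% of called genes higher here and 49.4% under quantile normalization, while the 5 called isotypes stayed called under each of the 3 other scalings.

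The age difference itself differed between the cell type labels for 8 of the 10 isotypes, all more positive with the label OHC, by the interaction test over all 4 groups. Of 17056 genes, 38.4% were called in that direction and 18.1% in the other. *Tubb3* had the widest gap, at 6.74 (SE 0.196, adjusted p = 9.06e-08), and *Tuba1a* (0.19) and *Tubb4b* (0.83) were the members short of the fold limit.

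**Figure D2:**
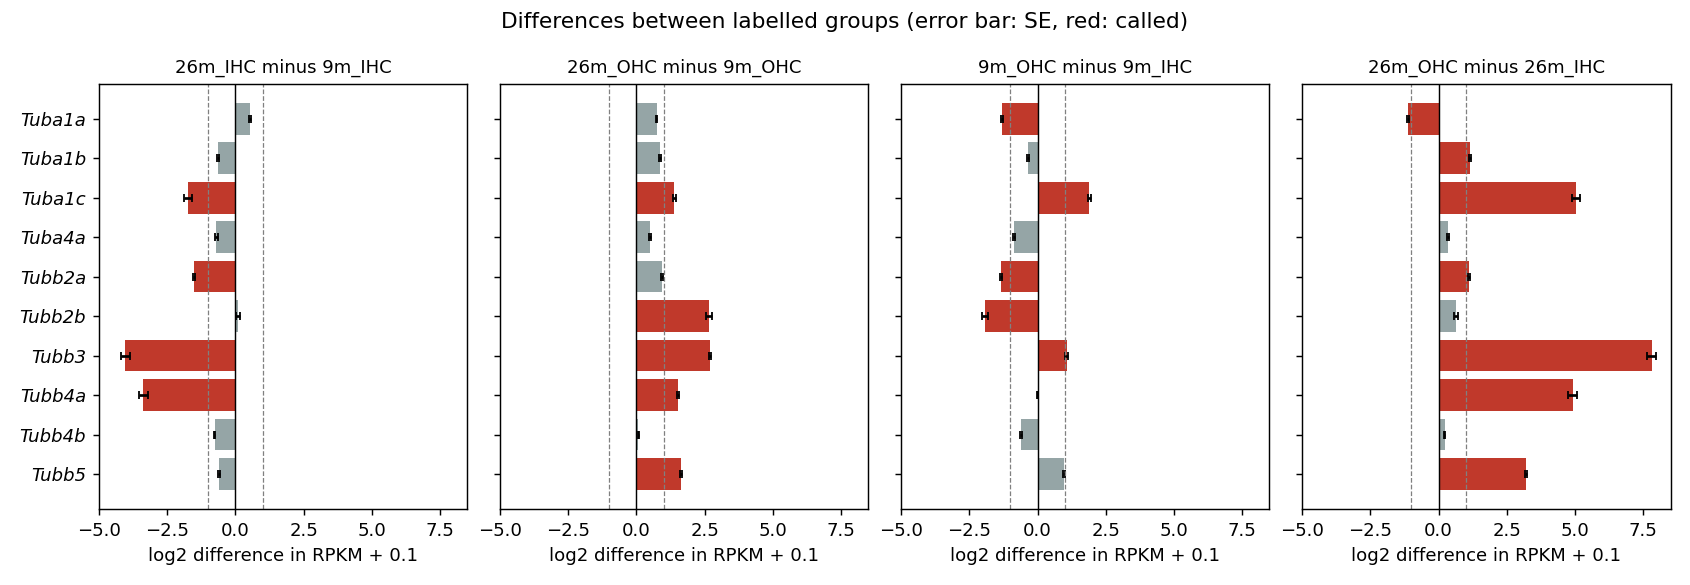
Log2 difference in RPKM + 0.1 (horizontal axis) of each isotype in the 4 comparisons between labelled groups, with SE as error bars (n = 2 averaged replicates per group) and red bars for called genes. Dashed lines mark a log2 difference of 1 in either direction. *Tubb3* is at -4.04 in the comparison of ages with the label IHC and at 2.70 with the label OHC.

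Between cell type labels at 9 months, 2 of the 10 isotypes were higher in libraries labelled OHC and 3 were lower, where 17.3% of 15335 genes were called higher and 48.5% lower. *Tuba1c* was 3.80-fold higher (log2 difference 1.90, adjusted p = 6.12e-06) and *Tubb3* 2.10-fold (1.07, adjusted p = 2.44e-05), though leaving out averaged replicate 2 of the group labelled 9m IHC put *Tubb3* at 0.997 and ended its call. *Tubb2b* was 4.19-fold lower (-1.93, adjusted p = 3.23e-05), *Tubb2a* 2.54-fold (-1.34, adjusted p = 2.4e-06) and *Tuba1a* 2.48-fold (-1.31, adjusted p = 2.41e-06). *Tubb5*, at 0.96, and *Tuba4a*, at -0.85, were short of the fold limit, as were *Tubb4b*, at -0.61, and *Tuba1b*, at -0.34. *Tubb4a* was at 0.00 (adjusted p = 0.996). This comparison depended on the scaling. The median over all genes was -0.93 here, -0.21 after median ratio scaling and -0.10 after quantile normalization, and the share of higher genes among the called was 26.3%, 43.9% and 48.6%. With median ratio scaling, *Tuba1a* (-0.58) and *Tubb2a* (-0.62) were no longer called, *Tubb5* (1.68) became so, and the signs of *Tuba1b* (0.39), *Tubb4a* (0.72) and *Tubb4b* (0.11) turned.

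At 26 months, 6 of the 10 isotypes were higher in libraries labelled OHC than in those labelled IHC and 1 was lower, where 29% of 16043 genes were called higher and 34.4% lower. *Tubb3* was 263-fold higher (log2 difference 7.81, SE 0.159, adjusted p = 1.29e-06), *Tuba1c* 34.8-fold (5.02, SE 0.145, adjusted p = 3.48e-06) and *Tubb4a* 33.3-fold (4.91, SE 0.174, adjusted p = 6.75e-06). *Tubb5* was 9.34-fold higher (3.20, adjusted p = 4.15e-07), *Tuba1b* 2.20-fold (1.14, adjusted p = 4.54e-06, but 0.98 and not called after quantile normalization) and *Tubb2a* 2.16-fold (1.11, adjusted p = 8.03e-06). *Tuba1a* was 2.17-fold lower (-1.12, adjusted p = 3.58e-06), a call that ended with median ratio scaling (-0.82) and without mitochondrially encoded genes (-0.93). *Tubb2b* (0.64), *Tuba4a* (0.34) and *Tubb4b* (0.22) were short of the fold limit. The median difference was 1.12 over the isotypes and -0.20 over all genes.

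OHC markers were highest in libraries labelled 26m IHC, while single markers were mixed between the labels 9m OHC and 9m IHC. The same differences can also be set out after exchanging the label 26m IHC for 9m OHC and the reverse. This arrangement was chosen with the data known. The comparison of libraries labelled 9m OHC and 9m IHC then takes the place of the age comparison in IHCs, and that of 26m OHC and 26m IHC of the age comparison in OHCs. In that arrangement *Tubb3* (1.07 and 7.81) and *Tuba1c* (1.90 and 5.02) were called higher at the later age in both, and *Tuba1a* (-1.31 and -1.12) lower in both. Of all genes, 17.3% were called higher and 48.5% lower in the first comparison, and 29% and 34.4% in the second. Both *Tuba1a* calls ended with median ratio scaling, and the first *Tubb3* call ended without averaged replicate 2 of the group labelled 9m IHC (0.997). *Tubb2a* went opposite ways (-1.34 and 1.11), the first call ending with median ratio scaling. Not called in both were *Tubb5* (0.96 and 3.20), *Tubb4a* (0.00 and 4.91), *Tuba1b* (-0.34 and 1.14) and *Tubb2b* (-1.93 and 0.64). *Tuba4a* (-0.85 and 0.34) and *Tubb4b* (-0.61 and 0.22) were called in neither. The pairs of comparisons share no libraries in either arrangement.

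Shares of each isotype within a library do not change when a whole library is multiplied by 1 factor. *Tuba1a* made up 59.6% ± 0.148 of the summed RPKM of the 4 alpha members in libraries labelled 9m IHC, 77.2% ± 0.104 in 26m IHC, 42.7% ± 0.380 in 9m OHC and 40.7% ± 0.0634 in 26m OHC (SD, n = 2). *Tuba1b* made up 35.1%, 20.02%, 49.2% and 50.5%, so that it passed *Tuba1a* in both groups labelled OHC. *Tuba1c* held from 0.124% (26m IHC) to 4.93% (26m OHC), and *Tuba4a* from 2.66% (26m IHC) to 4.88% (9m IHC). Among the beta members, *Tubb4b* held the largest share in every group, at 55.1% ± 0.470, 67.7% ± 0.133, 57.3% ± 0.0106 and 30.8% ± 0.340 in the same order. *Tubb3* held 2.64% ± 0.115, 0.287% ± 0.0709, 8.83% ± 0.0891 and 29.5% ± 0.0773, nearly as much as *Tubb4b* in libraries labelled 26m OHC. *Tubb2a* held 37.0%, 26.9%, 23.2% and 22.6%, and *Tubb5* 2.16%, 2.93%, 6.70% and 10.7%. *Tubb4a* held from 0.419% to 5.46% and *Tubb2b* from 0.296% to 1.74%. The summed RPKM of the beta members was 0.460 ± 0.00565 of that of the alpha members with the label 9m IHC, 0.195 with 26m IHC, 0.514 ± 0.00295 with 9m OHC and 0.573 ± 0.000997 with 26m OHC. The low ratio with the label 26m IHC went with the highest alpha sum (942 ± 23.1 RPKM) and the lowest beta sum (184 ± 4.51 RPKM). These shares leave out *Tuba8*, which held 15.9%, 26.5%, 13.6% and 3.56% when all alpha and beta tubulin genes entered the sums. *Tuba1a* then held 50.1%, 56.7%, 36.9% and 39.3%, so it was higher, not lower, with 26m OHC than with 9m OHC. *Tuba1b* then held 29.5%, 14.7%, 42.5% and 48.7%, below *Tuba8* with the label 26m IHC. The beta to alpha ratio was then 0.388, 0.144, 0.444 and 0.575.

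**Figure D3:**
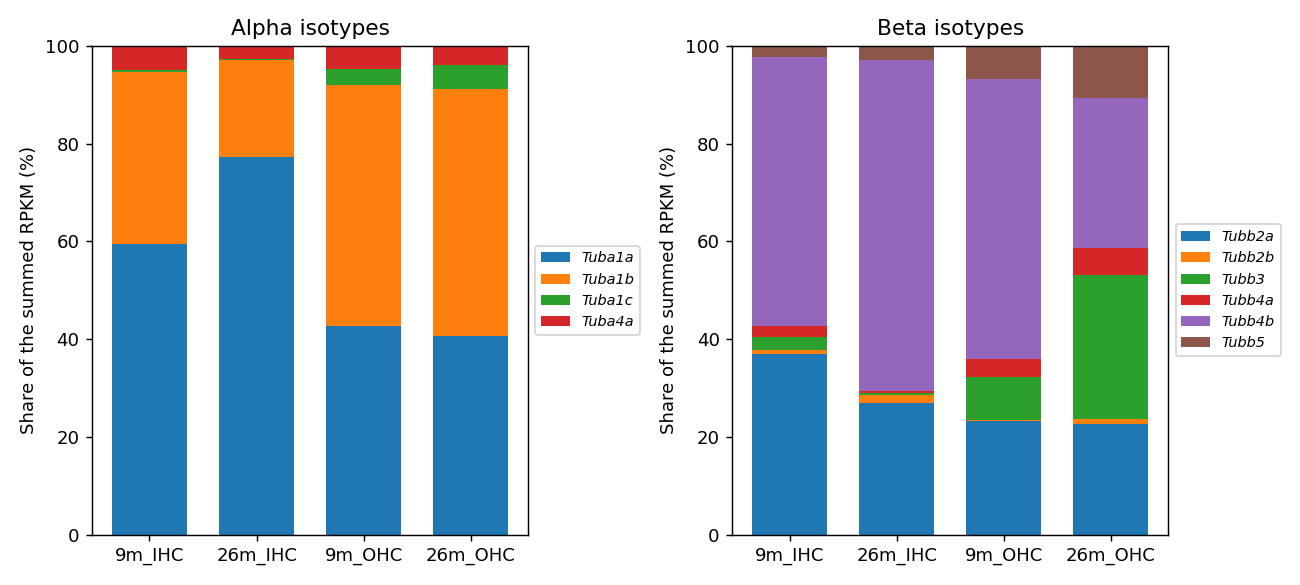
Share of each member in the summed RPKM (vertical axis, %) of the 4 alpha isotypes (left) and of the 6 beta isotypes (right) in the 4 labelled groups, as means of 2 averaged replicates. *Tuba1a* takes 77.2% of the alpha sum with the label 26m IHC, and *Tubb3* takes 29.5% of the beta sum with the label 26m OHC.

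The remaining alpha and beta tubulin genes of the table were 6. *Tuba8*, a divergent alpha isotype known from muscle and testis, was 157, 340, 73.4 and 30.4 RPKM on average in the order 9m IHC, 26m IHC, 9m OHC, 26m OHC. It was called higher with age with the label IHC (1.11, adjusted p = 6.32e-06) and lower with the label OHC (-1.27, adjusted p = 2e-05), the reverse of the called members. *Tubb6*, a beta isotype of non-neuronal cells, ranged from 0.934 to 1.76 RPKM in libraries with either IHC label and from 17.7 to 20.1 RPKM in those labelled 26m OHC, while it was at 0, 0, 0.0579 and 0.0285 RPKM in those labelled 9m OHC. It was called higher with age with the label OHC (7.33, adjusted p = 6.35e-06, a value that depends on the pseudocount) and had a difference of 0.22 with the label IHC (adjusted p = 0.315). *Tubb1*, the platelet and megakaryocyte isotype, was at 0.0492 to 0.148 RPKM with the label 9m IHC and at 0 in the other 12 libraries. *Tuba3a* and *Tuba3b*, the isotypes of testis, were above 0 in 1 library each, at 0.0229 and 0.0287 RPKM, and *Tubal3* was at 0 in all 16 libraries.

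Reads of near-identical members cannot be assigned with certainty, and the counting rules for such reads are not given in the sources used here. Some 75-base windows of the longest transcript also occurred in a transcript of another gene. These were 77.6% of the windows of *Tuba1b*, 68.6% of *Tuba1a* and 55.8% of *Tuba1c*. They were found most often in each other or in the gene models *AC157548.1*, *Gm17383* and *Gm14150*. *Tubb2a* shared 45.2% and *Tubb2b* 32.9%, mostly with each other, and *Tubb4b* shared 41%, mostly with a pseudogene. The 46.8% of *Tuba4a* all lay in *Stk16*, a kinase gene that overlaps it on the opposite strand, and whether reads were counted by strand is not given either. *Stk16* was 22.8, 23.2, 13.6 and 7.52 RPKM in the 4 groups in the order above, another order than that of *Tuba4a*. The gene model *Gm49450* overlaps *Tuba1a* and *Tuba1b* on the same strand. On the opposite strand, *Gm41396* overlaps *Tuba1b* and *Fam166a* overlaps *Tubb4b*. *Tubb3*, *Tubb4a* and *Tubb5* shared no window, and these members had ranges of 263-fold, 33.3-fold and 9.34-fold between group means. Among these 3 alone, the share of *Tubb3* was 37.1%, 7.85%, 46.0% and 64.6%.

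**Figure D4:**
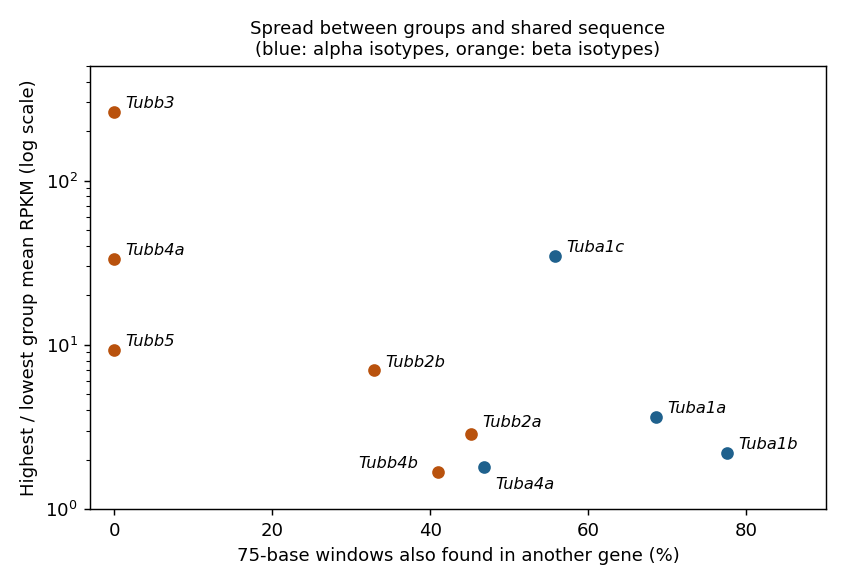
Share of 75-base windows of each isotype that also occur in a transcript of another gene (horizontal axis, %) against the ratio of its highest to its lowest group mean (vertical axis, log scale), 1 point per isotype, alpha in blue and beta in orange. *Tubb3*, *Tubb4a* and *Tubb5* sit at 0% with ranges from 9.34-fold to 263-fold, and *Tuba1c* at 55.8% with a range of 34.8-fold.

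Neuron markers also differed between the groups. The summed level of 12 neuron markers, among them neurofilament genes and *Snap25*, was 206 to 211 RPKM in libraries labelled 9m IHC, 31.9 to 32.1 in 26m IHC, 103 to 106 in 9m OHC and 770 to 783 in 26m OHC. All 10 markers tested were called lower with age with the label IHC, against 18.6% of all genes tested. All 10 tested were called higher with the label OHC, against 35.6% of all genes tested. As for *Tubb3*, the sum was lowest with the label 26m IHC and highest with 26m OHC. At 9 months the sum was higher with the label IHC, whereas *Tubb3* was higher with the label OHC. The markers were mixed there, and *Nefl* alone was at 108.8 RPKM with 9m IHC and 18.43 RPKM with 9m OHC. *Nefh*, *Snap25*, *Gap43*, *Syt1* and *Rbfox3* also had lower means with 9m OHC. *Nefm*, *Stmn2*, *Thy1*, *Uchl1* and *Elavl3* had higher means with 9m OHC, as *Tubb3* did. Of 11 markers tested between labels at 9 months, 2 were called higher with the label OHC and 4 lower. The shares of all genes tested were 17.3% higher and 48.5% lower. *Gap43* was at 0 in both groups labelled OHC, and *Prph*, *Syt1* and *Rbfox3* were at 0 with the label 9m OHC. *Tubb3* equalled 4.84% ± 0.302 of the neuron marker sum with the label 9m IHC and 1.65% ± 0.443 with 26m IHC. It equalled 20.2% ± 0.160 with 9m OHC and 17.9% ± 0.503 with 26m OHC. These ratios depend on the largest members of the sum, which were *Nefl* and *Snap25* in every group. With the label 26m IHC, the ratio also rests on 16 to 36 reads of *Tubb3* per library. The corresponding values of *Tubb5* were 3.96%, 16.8%, 15.4% and 6.48%, and those of *Tubb4a* 4.24%, 2.41%, 8.42% and 3.31%. Libraries labelled 26m OHC also held more macrophage markers (962 to 990 RPKM summed over 8 genes, against 0.158 to 50.9 in the other groups) and a higher sum of 6 fibrocyte and mesenchyme markers (378 to 389 RPKM, against 26.3 to 91.6). That sum was mostly *Coch* (309 RPKM) and *Otor* (71.8 RPKM), while *Pdgfra* was at 2.76 RPKM with the label 26m OHC and 24.7 RPKM with 26m IHC. Libraries labelled 26m IHC held more red cell markers (5920 to 6149 RPKM over 5 genes, against 11.97 to 407) and more markers of eosinophils and neutrophils (411 to 426 RPKM over 5 genes, against 0.0387 to 4.42). Supporting cell markers summed to 5848 to 5910, 4216 to 4252, 11530 to 11780 and 6488 to 6628 RPKM over 9 genes in the order above, and Schwann cell and myelin markers to 52.1 to 54.9, 14.0 to 15.1, 31.9 to 33.4 and 33.3 to 35.3 RPKM over 6 genes. The supporting cell sum was mostly *S100a1*. With 9m OHC against 9m IHC, 1 of the 9 markers was called higher and 4 lower, with *Gjb2* at 85.0 against 564 RPKM. Of all genes tested there, 17.3% were called higher and 48.5% lower. The part of these cells in the isotype differences was not tested.

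Genes that act on tubulin were counted from lists, to be read beside the shares of all genes called. These were 14.1% higher and 18.6% lower with age with the label IHC, 35.6% and 14% with age with the label OHC, 17.3% and 48.5% between labels at 9 months and 29% and 34.4% at 26 months. Of 22 genes for tubulin folding (the CCT chaperonin, prefoldin and the tubulin cofactors), none was called in the age comparison with the label IHC (median difference -0.13) and 1 was called higher and 1 lower with the label OHC (median 0.14). The only one called higher was the cofactor gene *Tbce* (1.76, adjusted p = 3.16e-05), from 2.36 ± 0.244 to 8.22 ± 0.1995 RPKM. The chaperonin subunit gene *Cct7* was at 236, 179, 127 and 118 RPKM in the order above, with age differences of -0.40 and -0.10. Between cell type labels, 6 of the 22 were called higher and 8 lower at 9 months, and 5 higher and 4 lower at 26 months, with the prefoldin gene *Pfdn5* higher in both (3.07 and 2.51).

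Of the enzymes that modify tubulin, 2 of 22 tested were called lower with age with the label IHC and none higher, and 7 of 20 (35%, close to the 35.6% of all genes) were called higher and 1 lower with the label OHC. Between labels, 12 of 22 (54.5%, against 48.5% of all genes) were called lower with the label OHC at 9 months and none higher, and 8 were called lower and 2 higher at 26 months. *Vash2*, a carboxypeptidase that removes the final tyrosine of alpha tubulin, was 2.74 ± 0.0147 RPKM with the label 9m IHC and 0.144 ± 0.05 with 26m IHC (-3.56, adjusted p = 1.17e-05), and it was listed at 0 in both groups labelled OHC. *Ttll3*, a glycine ligase, was 51.8 ± 1.98 and 51.7 ± 1.74 RPKM with the IHC labels and 11.9 ± 0.0694 and 12.1 ± 0.675 RPKM with the OHC labels, with age differences of 0.00 and 0.02. *Ttll12*, a related gene, was called higher with age with the label OHC (3.15, adjusted p = 1.44e-05) and was at -0.69 with the label IHC. The deacetylase gene *Sirt2* was at 56.5, 31.0, 41.8 and 48.7 RPKM, with age differences of -0.86 and 0.22.

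Of the microtubule associated, end binding, stathmin and severing genes, 10 of 29 tested (34.5%, against 18.6% of all genes) were called lower with age with the label IHC and 1 higher, and 18 of 30 (60%, against 35.6% of all genes) were called higher and 1 lower with the label OHC. *Stmn2* of this list is also among the neuron markers. At 9 months, 5 of 29 (17.2%, against 17.3% of all genes) were called higher with the label OHC and 11 (37.9%, against 48.5%) lower. At 26 months, 16 of 30 (53.3%, against 29% of all genes) were called higher and 7 lower with the label OHC. *Stmn3*, a neuronal stathmin that sequesters tubulin dimers, was 44.8 ± 0.722, 11.5 ± 0.162, 71.5 ± 0.385 and 275 ± 5.38 RPKM, the same order of groups as *Tubb3*. *Map1a*, which binds the microtubule lattice in neurons, was 3.04, 0.142, 3.32 and 19.2 RPKM, with age differences of -3.70 (adjusted p = 1.1e-06) and 2.498 (adjusted p = 2.77e-06). *Map6*, which makes microtubules stable to cold, was 1.35, 0.142, 0.00193 and 4.98 RPKM. *Stmn1*, the widely expressed stathmin, was 96.0, 69.7, 57.0 and 44.3 RPKM and was called in none of the 4 comparisons. Of 9 genes for gamma, delta and epsilon tubulin and the gamma-tubulin complex, which nucleate microtubules or belong to centrioles, 2 (22.2%, against 18.6% of all genes) were called lower with age with the label IHC, and 4 (44.4%, against 35.6%) were called higher and 2 lower with the label OHC. *Tubg1* was lower with age with both labels, just past the fold limit with the label OHC (-1.30, adjusted p = 1.78e-06, and -1.002, adjusted p = 5.77e-05), whereas *Tubg2* was lower with the label IHC (-2.08, adjusted p = 1.5e-05) and higher with the label OHC (2.57, adjusted p = 9.01e-06).

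For the 3 members with the widest range, the genes of most similar pattern were found by Pearson correlation of log2(RPKM + 0.1) over 8 averaged replicates among 13308 genes with a mean of 1 RPKM in at least 1 group. The 8 points fall into 4 groups, so that the correlation follows the order and spacing of 4 group means. For *Tubb3* they were *Vsnl1* (r = 0.999), *Hcfc1r1* (0.999) and *Arhgef17* (0.998). *Vsnl1*, a neuronal calcium sensor gene, was 5.03, 0.0785, 10.5 and 80.9 RPKM in the 4 groups. For *Tuba1c* they were *Nit1*, *Fkbp3* and *Prune2* (each r = 0.998), and for *Tubb4a* *Fcgrt* (0.999), *Ano6* (0.998) and *Gng10* (0.997).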

How the data were processed

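RNA-seq libraries (SMARTer low input cDNA, Nextera) were sequenced as paired reads on an Illumina HiSeq. The authors mapped them with CLC Genomics Workbench to mouse GRCm38 (mm10) and deposited 1 table with RPKM per Ensembl gene for 16 libraries. The software version, the counting of reads shared by near-identical genes and the use of strand are not given in the sources used here. RPKM is a composition, so a few abundant genes can shift all others.

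Mapped reads were recovered from RPKM steps and exon lengths, and 15700 of 20986 detected genes (74.8%) gave whole reads to within 0.001 in each library. Of the members, 6 were among these. Read numbers of the other members rest on a fitted length, the shortest that gave whole reads in every library. It was 1977 bases for *Tuba1c*, against 2287 from exons, and 1922 bases for *Tubb2b*, against 2294. RPKM is not a count, so limma 3.58.1 (R 4.3.3; lmFit, then eBayes with trend) was applied to log2(RPKM + 0.1), which understates changes of low genes. Genes averaging at least 0.1 RPKM in 1 of the groups compared were tested, with Benjamini-Hochberg adjustment over all of them. Calls needed an adjusted p no higher than 0.1 and a log2 difference of at least 1, as in the study. Pairs of libraries within sampling noise were averaged (n = 2 per group). Sequences and coordinates of coding ends come from GENCODE M21 (GRCm38), and gene coordinates from the deposited table. The coding ends of some members are not reported here. Shared sequence was measured in 75-base windows every 25 bases of the longest transcript, on either strand.

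The members and gene lists were chosen with earlier results of these data known. All 10 members are named. Of each other list, the 2 most abundant genes and the called gene with the largest difference in each age comparison are named, with every other alpha and beta tubulin. Alternatives covered pseudocount, filter, replicates, model, thresholds and 3 other scalings, by the median ratio to a reference library, by giving all libraries the same quantiles, and by leaving out mitochondrially encoded genes.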

Additional observations from a re-analysis of the deposited data

Results flagged for a closer look

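The age difference of 8 of the 10 isotypes differed between libraries labelled OHC and IHC by limma's interaction test over all 4 groups, where 38.4% of 17056 genes were called in this direction and 18.1% in the other. The difference of the log2 differences, (26m OHC minus 9m OHC) minus (26m IHC minus 9m IHC), was 6.74 for *Tubb3* (SE 0.196, adjusted p = 9.06e-08), 4.91 for *Tubb4a* (adjusted p = 5.13e-07) and 3.12 for *Tuba1c* (adjusted p = 3.06e-06). It was 2.57 for *Tubb2b*, 2.45 for *Tubb2a* and 2.24 for *Tubb5*, each with an adjusted p of 1.3e-06 or less. It was 1.48 for *Tuba1b* (adjusted p = 2.04e-07) and 1.19 for *Tuba4a* (adjusted p = 1.53e-06), the latter not called after median ratio scaling (0.77) or quantile normalization (0.99). *Tuba1a* (0.19, adjusted p = 0.00956) and *Tubb4b* (0.83, adjusted p = 1.09e-06) were short of the fold limit. The median was 2.34 over the isotypes and 0.50 over all genes. Marker sums go against the labels 26m IHC and 9m OHC, while single markers were mixed between the labels 9m OHC and 9m IHC. Exchanging these labels leaves each of these values as it is, since the same groups enter with the same signs. With 2 averaged replicates per group, no library could be examined as standing apart from its group.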

How the results depend on the processing

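Each log2 difference of the 10 isotypes in the 4 comparisons and the interaction was recomputed under the alternatives, 880 values in all. Changes of the filter, thresholds, trend or replicate block, or a joint fit of all groups, cannot alter a log2 difference. Under these, only the p-value or the call could change, so the total overstates how far directions were tested. Of the 880 values, 838 kept their direction and their side of the call and 8 lost the call. Another 25 gained it, mostly without the fold limit, and 9 turned in sign. None of the 9 was a called value. They were *Tubb4b* with age with the label OHC (-0.22 with median ratio scaling), and, between labels at 9 months, *Tuba1b* (0.39) and *Tubb4b* (0.11) with median ratio scaling and *Tubb4a* under all 3 other scalings (0.72 by median ratio, 0.78 by quantile, 0.0132 when mitochondrially encoded genes were left out). The others were *Tuba1a* in the interaction (-0.24 with median ratio scaling) and *Tubb4a* at 9 months when 1 replicate was left out (-0.0267 to 0.0264). With no limit on the fold change, 1 isotype was called higher and 8 lower with age with the label IHC. Of all 15711 genes tested, 6077 were then called higher and 7524 lower. With the label OHC, 10 isotypes were called higher with age, where 8830 of 14843 genes were called higher and 4867 lower. At 9 months, 3 isotypes were called higher and 6 lower, where 4462 of 15335 genes were called higher and 10182 lower. At 9 months 1 isotype stayed called lower with median ratio scaling, and at 26 months 0 did with that scaling or without mitochondrially encoded genes. Leaving out 1 replicate left 1 to 2 isotypes called higher at 9 months and changed no other count of called isotypes. Over all genes, a pseudocount of 1 RPKM gave 2286 (age, label IHC), 4197 (age, label OHC), 6302 (9 months), 6410 (26 months) and 5761 calls (interaction), against 5138, 7367, 10085, 10185 and 9642. A filter at a mean of 1 RPKM gave 3096 calls with age with the label IHC, where fewer genes were tested. Without the fold limit, the age comparisons gave 13601 and 13697 calls and the interaction 15422. The cause of the changes with scaling was not tested. Of 52 shares, sums and ratios, 34 moved by more than 1 SD when all alpha and beta tubulin genes entered the sums. Deviations of averaged replicates with the same number correlated at 0.167 to 0.351 between groups over 7771 genes, but with 2 numbers only this does not show that they are paired. With the averaged replicate number as a replicate block, 5150, 7382, 10096, 10197 and 9646 genes were called, and no call of an isotype changed. Depth limits the lowest values, such as *Tubb3* with the label 26m IHC on 16 to 36 reads, and read numbers carry counting error only, since reads without molecular identifiers are not independent molecules.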
